A study of Mus musculus with 3 samples.

Results

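The Hedgehog pathway genes described here are 10 genes (Gli2, Gli3, Ptch1, Shh, Dhh, Scube2, Disp1, Hhip, Cdon and Hhatl). Hhatl encodes a protein that resembles the acyltransferase Hhat. The others encode ligands, ligand-releasing proteins, receptors and other ligand-binding membrane proteins, co-receptors and Gli transcription factors. 5-hydroxymethylcytosine (5hmC), the oxidised form of 5-methylcytosine that Tet dioxygenases make, was mapped by hydroxymethylated DNA immunoprecipitation and sequencing (hMeDIP-seq) in the mouse embryonic stem cell line Sv129. FA0 cells were grown in folate-deficient medium (0 mg/L folate), and FA4 cells were split from the same line and received folate at 4 mg/L. Both came from the same unmodified line. Each condition had 1 immunoprecipitated library, so the spread between cultures cannot be estimated and no p-value is given. The mark is read from DNA, so cell identity could not be checked against marker genes.

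The 10 genes were chosen by the deposited lists of differentially enriched regions, so the direction of their regions was part of their selection and is described without a test. Each region assigned to 1 of these symbols was taken once per symbol, which gave 32 regions of 19817 listed for 9293 gene symbols. Signal was greater in FA0 at 16 of these 32 regions and greater in FA4 at the other 16, a share of 50% higher in FA0, against 38.9% of all listed regions. The split moved with the threshold, to 8 higher in FA0 and 2 higher in FA4 (80.0%) at 20 or more normalized counts in the higher library, where the share over all listed regions was 72.1%. With ratio intervals required to lie wholly beyond 2-fold, it was 5 higher in FA0 and 16 higher in FA4 (23.8%) on unscaled reads, and 16 higher in FA0 and 7 higher in FA4 (69.6%) with FA0 scaled up by 25%, against 26.9% and 58.8% over all listed regions. Normalized read counts were whole multiples of 1.15 per FA0 read and 0.866 per FA4 read, so reads could be recovered. A region with 0 reads in the other library had at least 10 reads in FA0 or 13 reads in FA4 to be listed, and regions below the listing threshold were not analysed here. The listed regions held 144823 reads of FA0 and 239268 reads of FA4 in all. Ratios are FA0 over FA4 with 95% intervals for counting error only, and where 1 library had 0 reads the fold was bounded with a floor of 3 reads. Each "at least" fold below takes the count of the higher library as exact. It is therefore not a 95% limit. The lower 95% limits of these folds were smaller, from 2.29 where the bound was 3.25 to 3.7 where it was 5.33.

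In Hedgehog signalling, Shh and Dhh are secreted, lipid-modified ligands, and Disp1 and Scube2 help to release them from the producing cell. Ptch1 is the receptor that holds the pathway off until a ligand binds, Cdon is a co-receptor that aids binding, and Hhip is a membrane protein that binds ligand and limits its action. Gli2 and Gli3 are the zinc finger factors at the end of the pathway, Gli2 chiefly an activator and Gli3 chiefly a repressor of target genes. Hhatl resembles Hhat, the acyltransferase that adds palmitate to the ligands. Shh from the notochord and floor plate patterns the ventral neural tube, and Ptch1 and Hhip are themselves pathway targets.

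Regions of the promoter class, which in these tables lay within 1999 bp of a transcription start site, were listed for Gli2, Ptch1 and Hhatl. The sequence around these start sites is shown because the 3 promoter regions were all higher in FA0 while the promoters differ widely in CpG content, and CpG is the site where 5hmC is mostly found. Windows run from 250 bases before to 50 bases after the start in GRCm38.p6, on the strand of the gene (minus for all 3), are credited to RefSeq, and have CpG dinucleotides in capitals. For Hhatl, the window lay wholly within its listed region. For Gli2 and Ptch1 the region lay 389 bp and 1605 bp away from the window.
Gli2 promoter, chr1:119053570-119053869: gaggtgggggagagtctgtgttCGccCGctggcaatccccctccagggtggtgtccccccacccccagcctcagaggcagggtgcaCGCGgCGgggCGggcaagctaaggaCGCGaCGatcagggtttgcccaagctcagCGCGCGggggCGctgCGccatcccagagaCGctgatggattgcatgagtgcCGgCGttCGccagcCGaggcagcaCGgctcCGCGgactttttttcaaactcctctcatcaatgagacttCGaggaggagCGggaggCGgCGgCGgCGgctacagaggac
Ptch1 promoter, chr13:63565686-63565985: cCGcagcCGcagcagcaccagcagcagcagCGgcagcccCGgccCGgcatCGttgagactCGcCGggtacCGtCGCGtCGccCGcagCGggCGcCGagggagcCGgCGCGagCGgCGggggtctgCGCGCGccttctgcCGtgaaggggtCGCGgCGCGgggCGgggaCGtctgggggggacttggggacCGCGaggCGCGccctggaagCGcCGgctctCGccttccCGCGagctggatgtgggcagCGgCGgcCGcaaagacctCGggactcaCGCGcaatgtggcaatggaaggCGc
Hhatl promoter, chr9:121792458-121792757: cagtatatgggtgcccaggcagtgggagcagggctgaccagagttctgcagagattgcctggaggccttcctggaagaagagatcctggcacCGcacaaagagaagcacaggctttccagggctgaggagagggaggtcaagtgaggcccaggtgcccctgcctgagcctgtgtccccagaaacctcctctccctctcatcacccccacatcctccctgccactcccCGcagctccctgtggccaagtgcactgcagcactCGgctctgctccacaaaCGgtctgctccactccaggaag

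The Ptch1 window held 47 CpGs (observed over expected 1.09) and the Gli2 window 28 (0.83). The Hhatl window held 4 CpGs (0.142) at a GC content of 61.7%, the lowest CpG ratio among the members' windows. Of the 10 genes, 9 had an entry in the promoter table, with 11 windows between them, and their median ratio was 0.7, against 0.384 over 32851 windows of 27025 genes (quartiles 0.176 and 0.75). Gli3 (1.12), Ptch1 and Scube2 (0.863) had CpG-rich windows, whereas those of Cdon (0.201) and Dhh (0.438) lay nearer the median of all promoters. The reference genes of Cdon and Ptch1 start 30547 bp and 7940 bp upstream of the start sites used for the listed regions. Their windows lay inside these longer genes and do not cover the upstream starts. Within 250 bases upstream and 50 downstream of the start, the Gli-binding sequence GACCACCCA was found on neither strand (reverse TGGGTGGTC) in any of the 11 windows, exactly or with 1 mismatch. Over all promoter windows it was present exactly in 0.253% and with up to 1 mismatch in 6.74%.

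**Figure D1:**
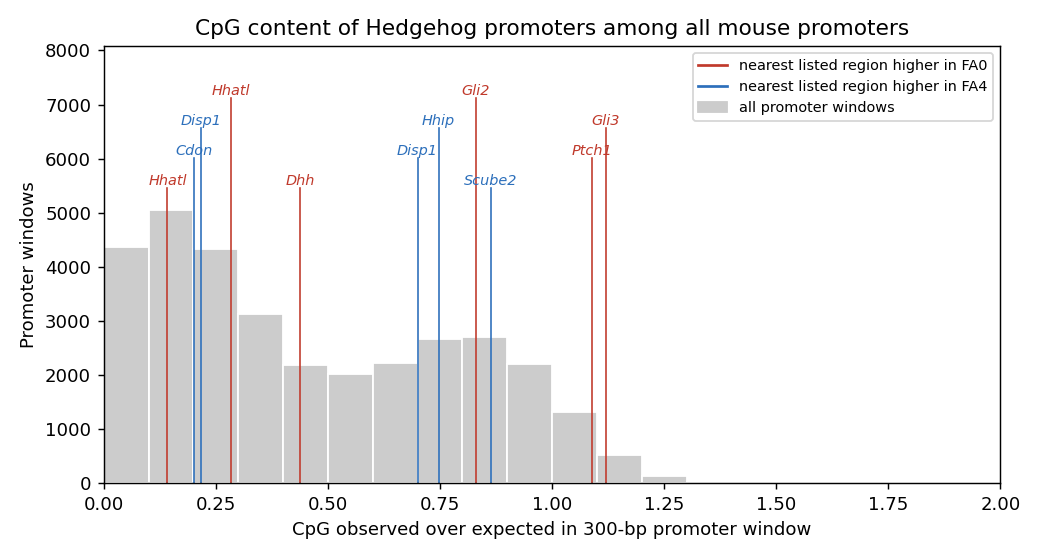
CpG observed over expected (x axis) in promoter windows from 250 bases before to 50 after the start, as the number of windows per bin (y axis, grey bars) over 32851 mouse promoters, with vertical lines for the 11 windows of 9 Hedgehog genes coloured by the direction of the nearest listed region. Hhatl has a window at each of 0.142 and 0.284, and Ptch1 and Gli3 lie at 1.09 and 1.12.

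The study's hMeDIP-qPCR primers for Gli2 and Hhatl are shown because those of Hhatl tie its region to a position that can be assayed.
Gli2 forward primer: caaacagttccaggctccaa
Gli2 reverse primer: attaccacagccctccactt
Hhatl forward primer: gagggagaggaggtttctgg
Hhatl reverse primer: ggagagggaggtcaagtgag

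Both Hhatl primers matched the printed Hhatl window, and the 70-bp amplicon between their outer ends (chr9:121792562-121792631) lay within the listed region. The amplicon itself held 0 CpGs at a GC content of 65.7%. The Gli2 primers matched none of the promoter windows, so their position relative to the Gli2 regions was not determined here. Only these windows were searched. The nearest Gli2 region lies 389 bp outside its window, so a match within a Gli2 region could not have been found.

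**Figure D2:**
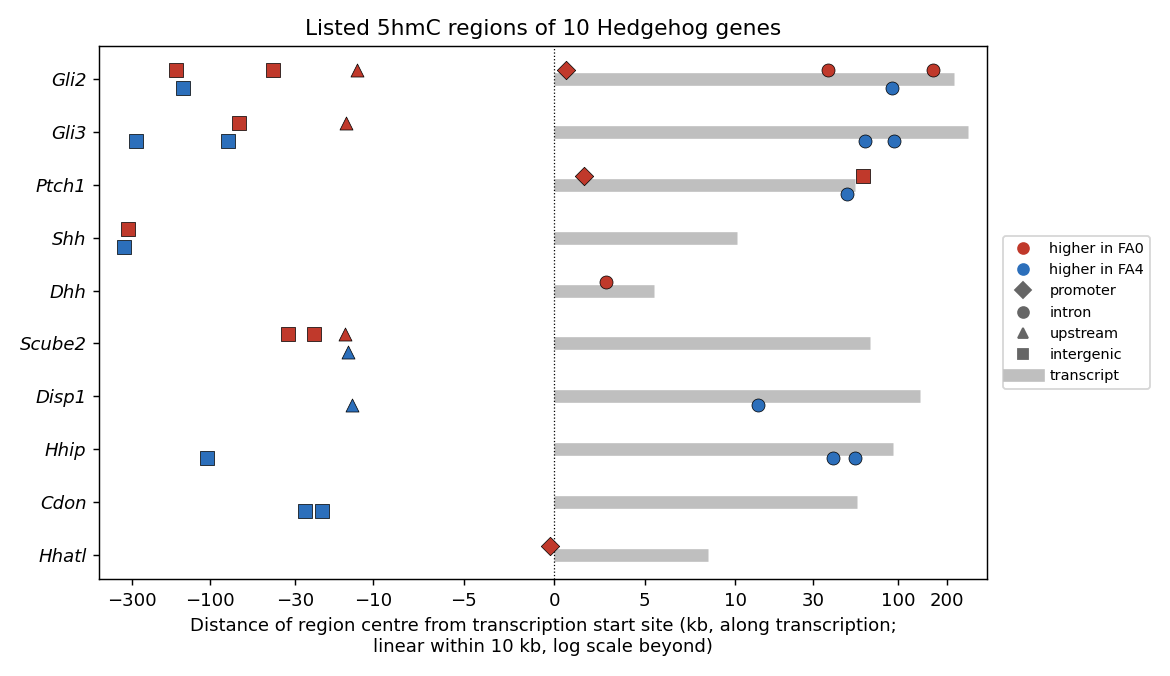
Position of the 32 listed regions of 10 Hedgehog genes as the distance in kb of each region's centre from the transcription start site (x axis, linear within 10 kb and logarithmic beyond), with 1 row per gene (y axis). Red symbols above the row line are higher in FA0 and blue symbols below it higher in FA4, the symbol shape gives the class, and the grey bar is the transcript; the 3 promoter symbols are red, and Disp1, Hhip and Cdon carry blue symbols only.

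Positions below are distances of a region's centre from the start site along transcription, negative when upstream, and the map of regions along each gene shows them together. The 32 regions were spread over promoters, introns, the upstream class (2003 to 19999 bp before the start) and the intergenic class, and no region of the 10 genes was in an exon. In promoters, 3 of 3 regions were higher in FA0, against 61.0% of all listed promoter regions. In introns 3 of 10 were higher in FA0, against 43.4% of all, and upstream 3 of 5, against 46.8%. Among intergenic regions 7 of 14 were higher in FA0, against 30.8%. These are counts of few regions, 8 of them from Gli2, and they are given as a description.

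**Figure D3:**
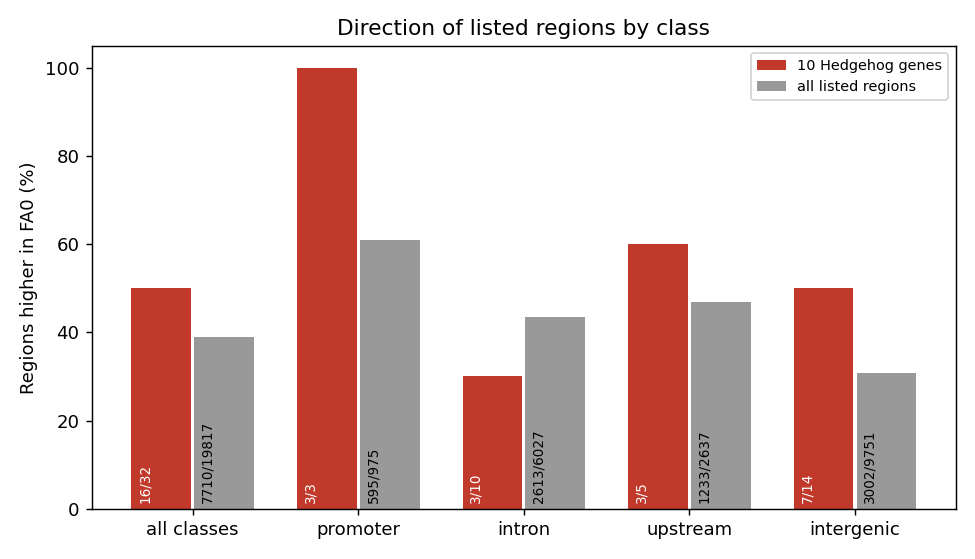
Share of listed regions higher in FA0 (y axis, percent) over all classes and by class (x axis), in the 10 Hedgehog genes (red) and over all listed regions (grey), with counts printed in the bars. The promoter share of the Hedgehog genes is 3 of 3 and their intronic share 3 of 10.

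Gli2 carried the most listed regions of the 10 genes, 8 along chromosome 1, of which 6 were higher in FA0. A further 172 of 9293 genes had more. The stretch within 500 kb of Gli2 was dense in listed regions, with 18.8 per Mb against 7.46 per Mb genome-wide, and 15 of its 23 regions belonged to other genes. This density was not particular to Gli2. It was 19.7 per Mb around Dhh and 12.8 to 14.9 around Hhatl, Ptch1, Cdon and Hhip. Around Gli3, Shh, Scube2 and Disp1 it was 5.94 to 7.9. The Gli2 regions higher in FA0 lay at -162, -41.0, -12.5, 0.629, 36.9 and 163 kb, so they ran from far upstream through the promoter to the later part of the transcription unit. The regions higher in FA4 lay at -146 and 91.2 kb, each between regions of the opposite direction. Summed over its 8 regions (4680 bp), Gli2 had 158 normalized counts in FA0 and 61.5 in FA4.

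At the Gli2 promoter (chr1:119052801-119053180, centred 629 bp downstream of the start and within the gene), 16 reads were counted in FA0 and 2 in FA4, which are 18.5 normalized counts in FA0 and 1.73 in FA4. The ratio was 10.7 (2.51 to 95.6). The 3 regions upstream of it that were higher in FA0 gave nearly the same counts, with 17, 18 and 19 reads in FA0 from the nearest to the farthest and 2 reads in FA4 in each. Their ratios were 11.3 (2.69 to 101), 12 (2.87 to 107) and 12.7 (3.06 to 112). With intervals this wide, the 4 ratios were not distinguishable.

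The 2 intronic Gli2 regions higher in FA0 held more reads in both libraries than the promoter region. They were also longer, 720 and 780 bp against 380 bp. Per kb, FA0 had 52.9 and 45.9 normalized counts there, against 48.6 at the promoter. FA4 had 14.4 and 9.99, against 4.55. At 36.9 kb (chr1:119016401-119017120) FA0 had 33 reads and FA4 12, or 38.1 normalized counts in FA0 and 10.4 in FA4, a ratio of 3.67 (1.85 to 7.8). At 163 kb (chr1:118889821-118890600) FA0 had 31 reads and FA4 9, a ratio of 4.59 (2.13 to 11). FA4 thus had more reads at these introns than the 2 it had at the promoter and at the FA0-higher sites upstream of it. Between them, the intronic region at 91.2 kb (chr1:118962081-118962800) went the other way, with 3 reads in FA0 and 28 in FA4, a ratio of 0.143 (0.0278 to 0.462). It stood 53.6 kb and 71.5 kb from its intronic neighbours. The intergenic region at -146 kb had 0 reads in FA0 and 14 in FA4, so FA0 was at least 3.5-fold lower there.

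Gli3 (chromosome 13) had 2 of 6 regions higher in FA0. Its balance leaned to FA4, unlike that of Gli2, as did the listed regions as a whole (38.9% higher in FA0). Both intronic regions were higher in FA4. At 62.1 kb (chr13:15524861-15526800) FA0 had 0 reads and FA4 18, so FA0 was at least 4.5-fold lower. At 93.8 kb (chr13:15556761-15558220) FA0 had 1 read and FA4 24, a ratio of 0.0556 (0.00135 to 0.341). The intergenic regions at -285 and -78.0 kb had 0 reads in FA0 and 15 and 16 reads in FA4. The regions higher in FA0 were the ones closest to the start on the upstream side, at -66.3 kb with 10 reads in FA0 and 0 in FA4 (at least 4.44-fold higher), and at -14.6 kb with 13 reads in FA0 and 1 in FA4 (ratio 17.3, 2.6 to 737). The Gli3 promoter had no listed region. Over 6660 bp of listed regions, Gli3 had 27.7 normalized counts in FA0 and 64.1 in FA4.

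Gli2 and Gli3 thus differed in the direction of their intronic regions, with 2 of 3 higher in FA0 for Gli2 and 0 of 2 for Gli3. With 5 regions between them this is a count and not a test. In both genes the upstream-class region within 15 kb of the start was higher in FA0.

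The receptor gene Ptch1 had a promoter region at 1.63 kb (chr13:63563701-63564080) with the same counts as the Gli2 promoter, 16 reads in FA0 and 2 in FA4 (10.7, 2.51 to 95.6). Its intronic region at 48.4 kb (chr13:63516741-63517600) had 0 reads in FA0 and 14 in FA4, at least 3.5-fold lower in FA0. A further region at 60.9 kb (chr13:63504201-63505060) had 13 reads in FA0 and 1 in FA4 (17.3, 2.6 to 737) and lay 3268 bp beyond the end of Ptch1 in the reference annotation. These positions follow the start used in the tables, whereas the reference Ptch1 gene extends 7940 bp further upstream. The promoter-class region lay within the gene by either annotation, and farther from the start of the longer gene.

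Both regions assigned to Shh, the best known of the ligands, lay far upstream and 15.6 kb apart. At -335 kb (chr5:28802141-28802940) FA0 had 0 reads and FA4 14, at least 3.5-fold lower in FA0, while at -319 kb (chr5:28785621-28786560) FA0 had 13 reads and FA4 1 (17.3, 2.6 to 737). Shh was the nearest gene to both in the reference annotation, but no listed region fell in the gene itself or its promoter. The long-range enhancers of Shh are known to lie upstream in this direction, and whether these regions meet any of them was not tested.

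Dhh, the ligand known from Sertoli and Schwann cells, had 1 listed region, in an intron at 2.84 kb (chr15:98895041-98896360, 1320 bp). It was the deepest region of the 10 genes, with 41 reads in FA0 and 15 in FA4, or 47.3 normalized counts in FA0 and 13 in FA4. The ratio of 3.64 (1.97 to 7.09) was the smallest difference among the regions higher in FA0. In the megabase around Dhh, 15 of the 19 regions that belonged to other genes were also higher in FA0.

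Among the genes that act on ligand release, Scube2 and Disp1 differed. Scube2 had 4 regions, all outside the gene and upstream of it. At -33.2 kb FA0 had 12 reads and FA4 0 (at least 5.33-fold higher), at -23.1 kb FA0 had 29 and FA4 8 (4.83, 2.16 to 12.2), and at -14.9 kb FA0 had 18 and FA4 3 (8.0, 2.34 to 42.4). The region at -14.2 kb (chr7:109879581-109880260) had 0 reads in FA0 and 15 in FA4, at least 3.75-fold lower in FA0. It overlapped the region at -14.9 kb (chr7:109880201-109880920) by 60 bp, so adjoining stretches of DNA went in opposite directions. Over all listed regions, 26 (0.131%) overlapped a region of the opposite direction. All 4 Scube2 regions lay nearer to Dennd5a than to Scube2 in the reference annotation, and the farthest lay within Dennd5a, so their assignment to Scube2 rests on distance to the start site alone.

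Disp1, the transporter-like protein that frees the ligand from the membrane, had 2 regions and both were higher in FA4. At 13.8 kb in the intron (chr1:183207181-183208260) FA0 had 0 reads and FA4 14, and at chr1:183160641-183161320 FA0 had 0 and FA4 13. The second region was classed as upstream because the tables measured it from the start of a shorter transcript, at -13.4 kb. In the reference annotation it lay within the longer Disp1 gene. FA0 was at least 3.5-fold and at least 3.25-fold lower at these sites.

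The ligand-binding membrane proteins Hhip and Cdon also had regions higher in FA4 only. Hhip had 3, at -105 kb with 0 reads in FA0 and 19 in FA4 (at least 4.75-fold lower in FA0), at 39.8 kb with 1 in FA0 and 19 in FA4 (ratio 0.0702, 0.00169 to 0.441) and at 54.6 kb with 0 in FA0 and 13 in FA4 (at least 3.25-fold lower). The last 2 were in introns. Summed over 2640 bp, Hhip had 1.15 normalized counts in FA0 and 44.2 in FA4.

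Cdon had 2 regions 4.12 kb apart, at -26.2 kb with 0 reads in FA0 and 15 in FA4, and at -20.6 kb with 0 in FA0 and 13 in FA4. The tables classed them as intergenic, but the reference gene starts 30547 bp before the start used in the tables, and both regions (chr9:35425001-35426840 and chr9:35430961-35432080) lay within it. FA0 was at least 3.75-fold and at least 3.25-fold lower. Counting by the reference annotation rather than the tables' classes, 16 of the 32 regions lay within their own gene, 6 of them with more signal in FA0 and 10 with more in FA4. Over all listed regions matched to the reference, 46.9% of those within their own gene were higher in FA0. Of the 16 outside, 10 had more signal in FA0 and 6 had more in FA4, against 34.9% higher in FA0 over all such regions.

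Hhatl had 1 region, and it covered the start site (chr9:121792281-121793220, 940 bp, centred at -0.243 kb). FA0 had 23 reads and FA4 4, or 26.6 normalized counts in FA0 and 3.46 in FA4, a ratio of 7.67 (2.62 to 30.5). It held the most FA0 reads of the 3 promoter regions but was longer than those of Gli2 and Ptch1 (380 bp each). Per kb, FA0 had 28.3 normalized counts at Hhatl, against 48.6 at both Gli2 and Ptch1. The Hhatl region covered the CpG-poor window printed earlier. The same 3 promoter regions stood in the separate promoter tables with the same values.

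**Figure D4:**
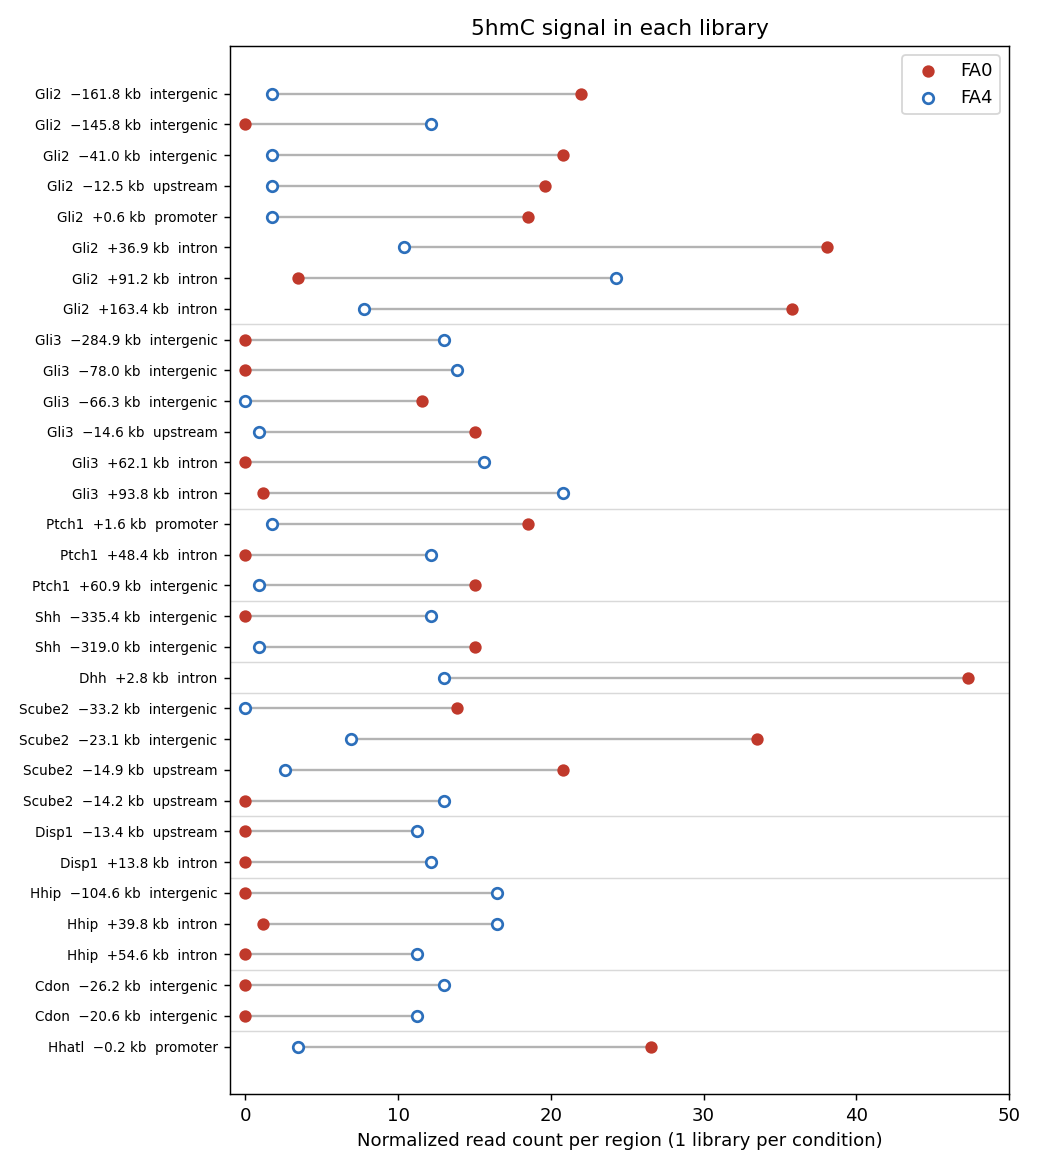
Normalized read counts (x axis) of the 32 regions (y axis, gene, distance from the start site and class) in FA0 (filled red) and FA4 (open blue), 1 library per condition, with a grey line joining the libraries. Regions higher in FA4 mostly start from 0 in FA0, while those higher in FA0 mostly keep some FA4 signal, up to 13 at Dhh.

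Regions of the 2 directions differed in how empty the lower library was, as the plot of normalized counts shows. Of the 16 regions higher in FA4, 13 had 0 reads in FA0, against 81.1% of all listed regions higher in FA4. Of the 16 higher in FA0, 2 had 0 reads in FA4, against 32.4%. Of the FA4-higher regions of the 10 genes, 10 had 0 FA0 reads and 13 to 15 FA4 reads. The fewest FA4 reads of any listed region higher in FA4 were 13. How many of all listed regions had such low counts was not determined, so this count is not read as a trait of the 10 genes. The higher library had a median of 17.5 reads in regions higher in FA0 and 15 in regions higher in FA4, close to the medians over all listed regions, 16 for those higher in FA0 and 15 for those higher in FA4. FA0-higher regions had a median length of 720 bp and FA4-higher regions 830 bp, against 760 and 1080 bp over all.

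**Figure D5:**
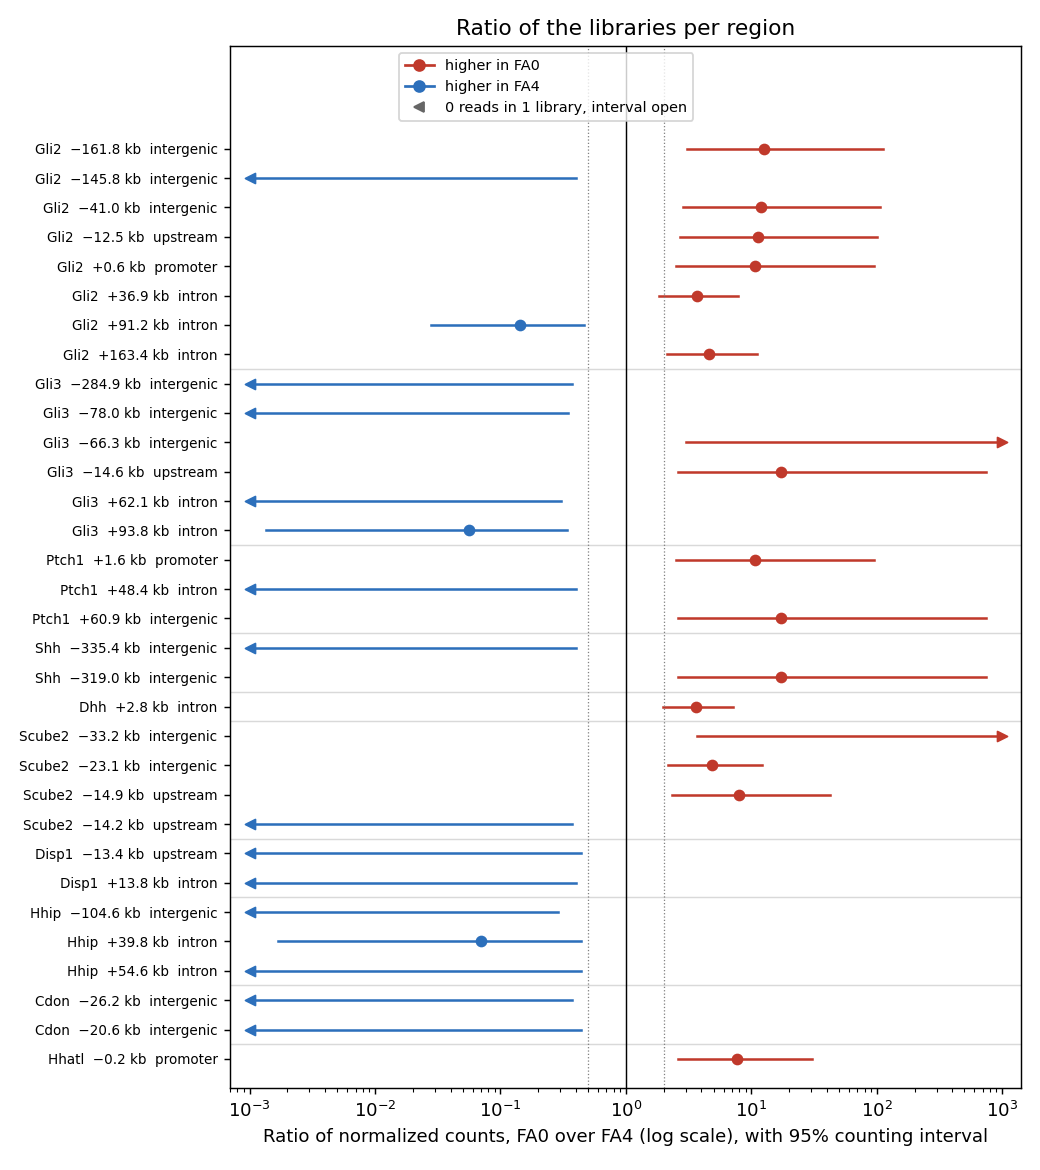
Ratio of normalized counts, FA0 over FA4 (x axis, log scale), for the 32 regions (y axis, ordered by gene and position) with 95% counting intervals, in red where higher in FA0 and blue where higher in FA4. Arrowheads mark intervals without an end because 1 library had 0 reads, the solid line is a ratio of 1 and dotted lines mark 2-fold; the intervals of Dhh and of Gli2 at 36.9 kb cross the 2-fold line.

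The plot of ratios shows that counting error left the interval wholly beyond 2-fold for 14 of the 16 regions with more signal in FA0 and for 16 of 16 with more in FA4. Over all listed regions the shares were 95% for those higher in FA0 and 98.5% for those higher in FA4, and listing itself required a fold of 2.0. The exceptions were the 2 deepest regions, Dhh and Gli2 at 36.9 kb. Ratios of 17.3 were reached only where FA4 had 1 read, with an upper bound of 737.

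Gli2, Gli3, Ptch1, Shh and Scube2 carried regions of both directions, 5 of the 10 genes. Among genes with 4 or more listed regions, 3 of 3 Hedgehog genes (Gli2, Gli3 and Scube2) had both, against 72.0% of all such genes. Among those with 2 or 3 regions, 2 of 5 had both, against 43.9%. Neighbouring regions of 1 gene were of opposite direction in 10 of 22 pairs in these genes, a share of 45.5%, and in 32.6% of 10934 pairs over all genes. FA0-higher regions had a median distance of 28.2 kb from the start and FA4-higher regions 58.3 kb, against 28.2 and 63.3 kb over all listed regions.

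The direction of regions of other genes close by is given beside these results, since the genes lie in stretches that differ in it. Within 500 kb of each gene, regions belonging to other genes were mostly higher in FA0 around Dhh (15 of 19), Hhatl (11 of 14) and Scube2 (4 of 4). They were mostly higher in FA4 around Hhip (9 of 11), Ptch1 (9 of 12), Cdon (8 of 12) and Gli3 (4 of 4). Around Gli2, 7 of 15 were higher in FA0 and 8 higher in FA4, whereas 6 of Gli2's own regions were higher in FA0 and 2 higher in FA4. Around Shh and Disp1 they were even, with 2 of 4 and 3 of 6 higher in FA0. The part of the surrounding stretch in each gene's values was not tested.

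Other Hedgehog pathway genes are set beside these by counts. Of 19 further ligand, receptor and Gli-factor genes, 5 had listed regions, 10 in all, of which 7 were higher in FA0 (70.0%, against 38.9% of all listed regions). Disp2, a relative of Disp1, Evc, a ciliary protein that binds Smo, and Scube3 had regions higher in FA0 only, and Hhat and Scube1 regions higher in FA4 only. Scube3 had the 1 promoter region among them, with 10 reads in FA0 and 0 in FA4. Disp2 thus contrasted with Disp1, and Scube3 with Scube1. The Scube family was not split cleanly, since Scube2 had 3 regions with more signal in FA0 and 1 with more in FA4. Each of these contrasts rests on few regions. Both Disp2 regions (chr2:118790841-118791900 and chr2:118791941-118792580) lay almost end to end, so they are close to a single stretch.

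Of 25 listed symbols of kinases, ubiquitin ligases and their partners that act on Gli or Smo proteins, 12 had 32 regions, with 12 higher in FA0 and 20 higher in FA4 (37.5% higher in FA0, close to the 38.9% of all listed regions). Their 3 promoter regions were all higher in FA0, against 61.0% of all listed promoter regions. Of 10 Notch receptors and ligands, 4 had 16 regions, with 6 higher in FA0 and 10 higher in FA4 (37.5%, against 38.9% of all listed regions). This pooled share mixes genes of opposite direction. In 1 gene all regions were higher in FA0, in 2 genes all were higher in FA4, and 1 gene had both.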

How the data were processed

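Genomic DNA of Sv129 mESCs was immunoprecipitated with an antibody against 5hmC and sequenced. Labels and methods differ on the kits and fragment sizes, which was not settled. The authors trimmed reads with cutadapt 1.9.1 and aligned them with Bowtie2 2.2.4 to mm10, per the submitters' processing notes. No FA0 input values were used. The program that called regions is not given in the sources used here.

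Per region, the authors deposited a normalized count (a signal scaled with 1 factor per library). Deposited values were whole reads within a tolerance of 0.02 reads in 100.0% of cases, and the file headings give a fold of 2.0 and a p of 0.0001 for listing. Columns of the authors' own comparison (fold, p-value, false discovery rate) and 8 columns of averages were not used.

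All 10 genes and each of their regions are named. Members and lists were chosen with earlier results of these data known, and 1 gene of the lists is not reported here. Regions were counted once per symbol and direction. Ratios have exact conditional binomial intervals (95%, scipy 1.17.1, Python 3.11.15). With 1 library per condition no count model or test was used. In simulated data 100.0% of reads were recovered over 19817 regions, and intervals held the known ratio in 96.5% of 200 changed regions. The simulation drew binomial counts and applied no listing threshold. It therefore does not show how the intervals perform on regions selected for a large difference. Reference genes and promoters are of GRCm38.p6, the same build as mm10, and 8 of the 10 genes shared an end with the tables within 1 bp. Alternatives changed the signal minimum, the fold, the scaling, the distance to the gene and the members counted.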

Additional observations from a re-analysis of the deposited data

How the results depend on the processing

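Of 73 values recomputed under alternatives, 57 stayed within the spread set for them and 16 moved. The 57 include the count of promoter regions higher in FA4. That count was 0 in the main result and could not rise when regions were dropped or rescaled, so its lack of change says nothing about stability. With at least 20 normalized counts in the higher library, 8 member regions were higher in FA0 and 2 higher in FA4 (80.0% higher in FA0, 72.1% over all listed), with 1 promoter region and 1 gene of both directions left. Counting only regions within 10 kb of the gene as the tables span it, which leaves out both Cdon regions, left 7 higher in FA0 and 8 higher in FA4, and 2 genes of both directions. Without Gli2, 10 regions were higher in FA0, a share of 41.7%. A fold of at least 4, or an interval wholly beyond 2-fold, left 14 higher in FA0 and 16 higher in FA4.

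The scaling between the libraries alone changed no count, but together with an interval wholly beyond 2-fold, a setting chosen after seeing the data, it did. On unscaled reads 5 regions higher in FA0 (23.8%; 26.9% over all listed), 0 promoter regions and 3 genes of both directions were left. With FA0 scaled up by 25%, 7 regions higher in FA4 were left (69.6% higher in FA0; 58.8% over all listed) and 2 genes of both directions. Most folds rest on 10 to 41 reads in 1 library and few in the other, so depth limits their size. No paired analysis was possible because each condition had 1 library.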
